A study of Mus musculus with 4 samples.

Results

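The 31 genes described here are markers of cell lineages other than T cells, examined for open chromatin in mouse T cells. They were taken from a fixed list of gene names (5 of B cells, 11 of myeloid cells, 3 of erythroid cells, 3 of pluripotent stem cells and 9 of tissues outside the blood), out of 21951 protein-coding genes in the GENCODE annotation of mm10. ATAC-seq, in which a transposase cuts accessible DNA and loads it with sequencing adapters, was performed on naive CD4+ T cells sorted as CD62L high, CD44 low and CD25- from the spleen of 7-week-old male C57BL/6 mice. All cells were stimulated for 48 h with anti-CD3 bound to the plate at 5 µg/ml and with anti-CD28 in solution at 1 µg/ml. The medium held 5 ng/ml of human TGF-β1 together with 10 ng/ml of mouse IL-2, a mixture that polarizes naive cells toward regulatory T cells (Tregs). Polarization without IL-4 gave 2 libraries and polarization with IL-4 (15 ng/ml) gave 2, which the study describes as biologically independent pooled samples. The mice carried no engineered allele, and the cells were bulk cultures, so a weak peak from all cells and a strong one from a few cells cannot be told apart.

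A differentiated cell keeps most genes of other lineages in closed chromatin. Master transcription factors such as Pax5 in B cells, Spi1 (PU.1) in myeloid cells, Klf1 in red cell precursors or Myod1 in muscle set up their own lineage's program, and several of them oppose the programs of their neighbours. Blood lineages descend from shared progenitors, whereas neurons, liver or muscle do not. Promoters with many CpG dinucleotides tend to lack DNA methylation and to be accessible in many cell types even where the gene is silent, while CpG-poor promoters are usually accessible only where they are used.

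The authors deposited 1 list of MACS2 peaks per library, with 77064 and 56645 peaks without IL-4 (replicates 1 and 2) and 78670 and 67743 peaks with IL-4 (replicates 1 and 2). A promoter was counted as open in a library when a peak shared at least 1 base with the stretch from 1 kb before to 1 kb after any annotated transcript start of the gene. The strength of a peak is given as its rank position, the percentage of peaks of the same list with a higher −log10 q-value, so that a low percentage marks a strong peak. Depth is unknown for all 4 libraries, and a promoter without a peak is one where no enrichment was called at that depth. The label of the cells was checked with 22 T cell genes: all 22 had a promoter peak in each of the 4 libraries, with median rank positions of 7.6%, 12.8%, 8.3% and 11.3% (without IL-4 replicates 1 and 2, with IL-4 replicates 1 and 2). Values for the 4 libraries follow this order throughout.

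Sequences are shown for Pax5 and Klf1, whose peaks ranked highest among the open members in the library where each was weakest, for Neurod1, the CpG-rich promoter without a peak in any library, and for Sox2, whose peak was called only with IL-4. Cebpe was the other closed promoter to be shown by the same rule and is named only. CpG dinucleotides are in capitals. The upstream promoters are RefSeq entries on GRCm38.p6 (mm10), ending before the first annotated base of the gene. They lie at chr8:84901732-84901927 (forward strand, 196 bases) for Klf1, chr4:44710695-44710944 (reverse strand, 250 bases) for Pax5 and chr2:79456752-79456886 (reverse strand, 135 bases) for Neurod1:
Klf1 upstream: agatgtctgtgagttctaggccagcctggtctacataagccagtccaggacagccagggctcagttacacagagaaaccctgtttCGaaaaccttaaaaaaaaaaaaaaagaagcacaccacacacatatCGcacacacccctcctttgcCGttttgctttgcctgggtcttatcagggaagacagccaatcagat
Pax5 upstream: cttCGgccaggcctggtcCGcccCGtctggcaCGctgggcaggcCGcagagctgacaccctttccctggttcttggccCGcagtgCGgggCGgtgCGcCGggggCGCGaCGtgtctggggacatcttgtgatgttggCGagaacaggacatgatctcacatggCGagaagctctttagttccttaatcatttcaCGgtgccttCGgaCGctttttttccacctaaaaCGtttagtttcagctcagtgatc
Neurod1 upstream: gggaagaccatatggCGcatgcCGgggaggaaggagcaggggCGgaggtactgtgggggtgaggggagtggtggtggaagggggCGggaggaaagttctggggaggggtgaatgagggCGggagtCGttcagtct

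The open stretches themselves are bases shared by the peak in each library that had it, cut to the central 300 bases, and read on the forward strand. They lie in a coding exon of Klf1 at chr8:84903095-84903394, in an intron of Pax5 at chr4:44704349-44704648 and upstream of Sox2 at chr3:34649859-34650035 (177 bases):
Klf1 peak: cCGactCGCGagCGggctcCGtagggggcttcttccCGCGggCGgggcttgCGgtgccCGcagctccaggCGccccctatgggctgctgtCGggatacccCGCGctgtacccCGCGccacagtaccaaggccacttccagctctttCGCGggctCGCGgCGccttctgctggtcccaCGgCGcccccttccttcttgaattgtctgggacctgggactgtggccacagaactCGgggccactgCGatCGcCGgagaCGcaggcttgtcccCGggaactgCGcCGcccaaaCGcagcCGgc
Pax5 peak: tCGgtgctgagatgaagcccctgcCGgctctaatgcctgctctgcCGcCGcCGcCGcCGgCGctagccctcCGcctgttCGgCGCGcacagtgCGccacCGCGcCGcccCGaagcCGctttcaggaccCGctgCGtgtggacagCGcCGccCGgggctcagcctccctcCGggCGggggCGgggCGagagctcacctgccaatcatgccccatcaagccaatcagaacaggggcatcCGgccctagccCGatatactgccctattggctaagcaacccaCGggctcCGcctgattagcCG
Sox2 peak: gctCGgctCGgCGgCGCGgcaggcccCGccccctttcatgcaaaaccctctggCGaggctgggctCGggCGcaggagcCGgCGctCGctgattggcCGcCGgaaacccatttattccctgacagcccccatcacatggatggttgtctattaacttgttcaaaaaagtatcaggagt
The Klf1 stretch holds 33 CpG and the Pax5 stretch 32, against 3 in the printed upstream promoter of Klf1 and 19 in that of Pax5. The Sox2 stretch holds 14 CpG.

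Promoter peaks were present in all 4 libraries at 12 of the 31 members: Pax5 and Ebf1 of B cells, Spi1, Cebpa, Mpo, Cd14 and Fcgr3 of myeloid cells, Klf1, Tal1 and Epor of erythroid cells, Pou5f1 of stem cells and Pax6 of the eye and brain. At 13 members no library had one: Cd79a, Cebpe, Csf1r, Csf3r, Lyz2, Elane, Nanog, Neurod1, Alb, Hnf4a, Ins2, Tnnt2 and Krt5. The other 6 (Cd79b, Ms4a1, Itgam, Sox2, Myod1 and Olig2) had a promoter peak in 1 to 3 libraries. Of all protein-coding genes, 59.9% were open in all 4 libraries and 33.7% in none, against 38.7% and 41.9% of the members. The members open in a library numbered 15, 13, 16 and 17 (48.4%, 41.9%, 51.6% and 54.8%), against 64.1%, 60.8%, 64.6% and 62.9% of all protein-coding genes.

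Members of blood lineages were open more often than the other members. Of the 19 members of blood lineages, 10 were open in all 4 libraries, 3 in some and 6 in none, whereas of the 12 members of stem cells and other tissues 2 were open in all, 3 in some and 7 in none. All 3 erythroid members, 5 of 11 myeloid, 2 of 5 B cell, 1 of 3 stem cell and 1 of 9 non-blood members were open throughout. By kind of gene, 8 of 15 transcription factors and 3 of 9 surface receptors were open in all libraries. Of the 7 cell products, such as lysozyme, elastase, albumin and insulin, Mpo alone was open and the other 6 were closed in every library. In percent, 52.6% of the blood members and 16.7% of the others were open in all libraries, against 59.9% of all protein-coding genes. Closed in every library were 31.6% and 58.3%, against 33.7%. Of the transcription factors, receptors and products, 53.3%, 33.3% and 14.3% were open in all libraries. Kind and lineage overlap, as the products Alb, Ins2, Tnnt2 and Krt5 belong to tissues outside the blood. These shares describe the members, which are too few and too deliberately chosen for a test.

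**Figure D1:**
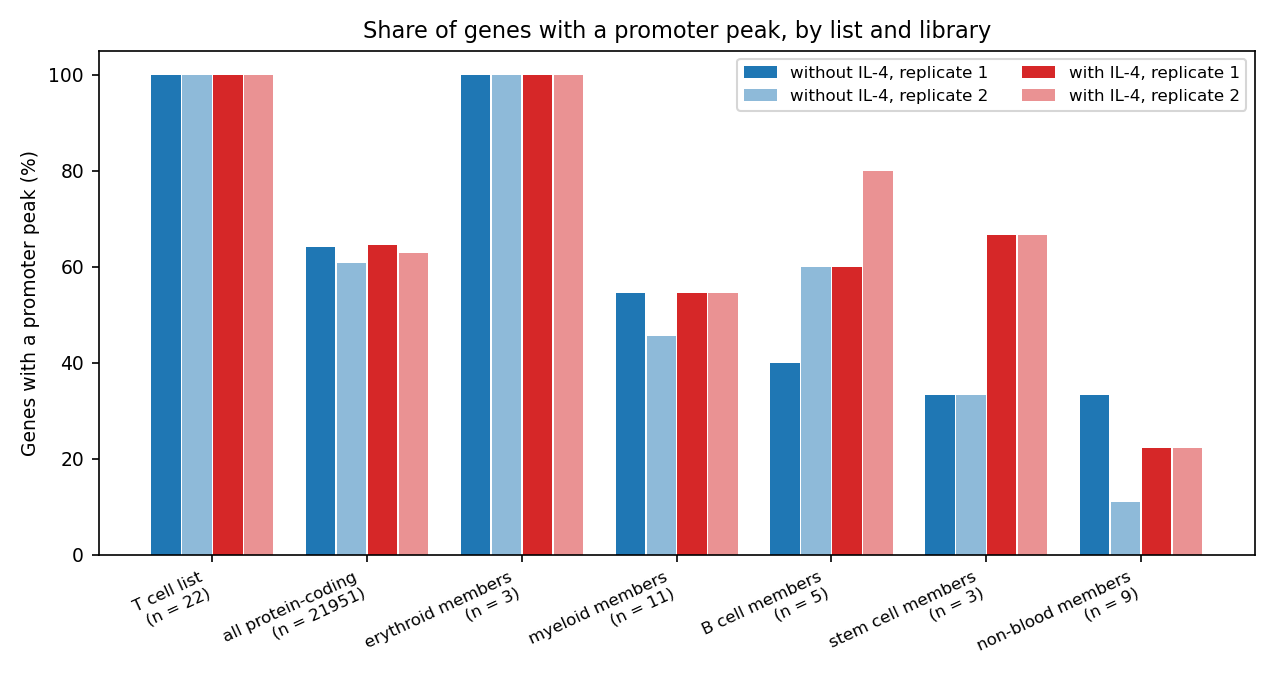
Share of genes (y axis, percent, from 0) with a promoter peak in each library, for the T cell list, all protein-coding genes and the members by lineage, with the number of genes under each group; blue bars are libraries without IL-4 and red bars libraries with IL-4. The T cell list and the erythroid members stand at 100% in every library and the non-blood members between 11.1% and 33.3%.

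The open promoters of the members ranked lower, at the median, than those of the T cell list or of open genes in general, a difference given without a test. The median rank position of the 12 open members was 21.8%, 37.9%, 19.4% and 30.3%, against 9.7%, 12.1%, 9.8% and 10.3% for the 13148 protein-coding genes open in all libraries. All 12 members ranked lower in replicate 2 than in replicate 1, both without and with IL-4. The lists of the replicates 2 were also the shorter ones, and the part of list length in these ranks was not tested. Among the 22 T cell genes, the peak of Cd4 was the weakest in each library, at 66.3%, 88.0%, 65.5% and 72.3% by −log10 q-value and at 38.5%, 56.5%, 39.2% and 42.8% by height.

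**Figure D2:**
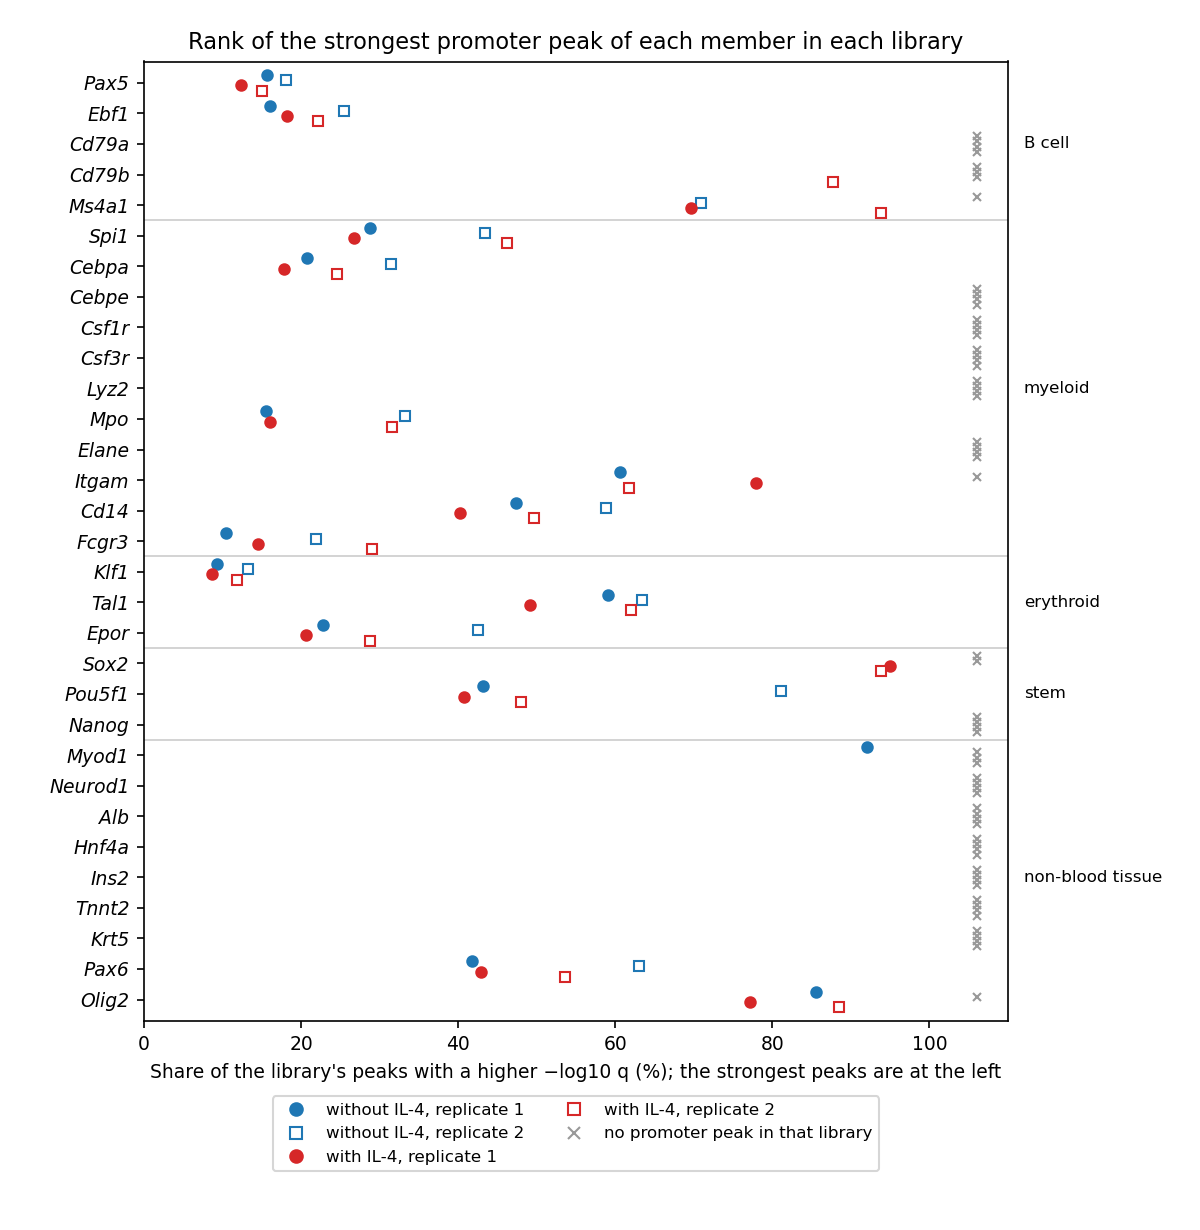
Rank position (x axis, percentage of the library's peaks with a higher −log10 q-value) of the strongest promoter peak of each of the 31 members, grouped by lineage. Blue marks libraries without IL-4 and red marks libraries with IL-4, filled circles replicate 1 and open squares replicate 2; grey crosses at the right mark libraries with no promoter peak. Klf1 lies farthest left in every library, and most non-blood members have crosses only.

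Klf1, the zinc finger factor that switches on globin genes, had the promoter peak with the highest rank by −log10 q-value among the members in all 4 libraries. Its rank position was 9.3%, 13.3%, 8.7% and 11.8%, and its height 317, 135, 301 and 214 overlapping fragments, which are not scaled for depth. By height the peak of Fcgr3 was taller in both libraries of replicate 1, with 441, 128, 325 and 141. The peak of Klf1 lay inside the gene, on a coding exon, with its centre 1275, 1316, 1272 and 1256 bases downstream of the single annotated start, and reached into the promoter window with its upstream edge only. Epor, the receptor for erythropoietin, had a peak at 22.8%, 42.5%, 20.6% and 28.8% centred within 59 bases of an annotated start. That start lies inside the gene record, about 1 kb from its 5′ end, and a second, weaker Epor peak followed downstream at 57.3%, 67.0%, 64.9% and 77.2%. Tal1, a factor needed for the first blood stem cells and later for red cells, stood at 59.1%, 63.4%, 49.2% and 62.0%. Tal1 was thus in the weaker part of each list, apart from the library with IL-4 replicate 1.

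The transcription factors of B cells were open and their receptor genes mostly not. Pax5, which commits progenitors to the B lineage, stood at 15.6%, 18.1%, 12.3% and 15.0%. The Pax5 peak was not at the 5′ end of the gene record but about 6 kb downstream, in an intron, 475 to 504 bases before an internal start site and inside an unverified transcript (5730488B01Rik) annotated over it. At the 5′ end itself only the library with IL-4 replicate 1 had a peak, at 98.8%. Ebf1, which acts with Pax5, had a peak at its 5′ end at 16.0%, 25.4%, 18.2% and 22.1%, and a weaker one in an intron about 1.1 kb downstream at 63.3%, 72.6%, 64.1% and 74.2%. Of the receptor genes, Ms4a1 (CD20) had a peak in 3 libraries at 70.9%, 69.6% and 93.8% and was missed in the library without IL-4 replicate 1. Cd79b had one in the library with IL-4 replicate 2 alone, at 87.7%, and Cd79a, its partner in the B cell receptor, had none. None of the 3 receptor genes was open in all 4 libraries.

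Myeloid members split between 5 open in all libraries and 5 closed in all. Fcgr3, a receptor for the Fc part of IgG, had the widest peak, of 2011 to 2037 bases across its start, at 10.5%, 21.9%, 14.5% and 29.0%. Cebpa, the factor that directs granulocyte development, had a peak over its CpG-rich 5′ end at 20.7%, 31.5%, 17.8% and 24.6%. Spi1, the myeloid master factor PU.1, stood at 28.8%, 43.4%, 26.7% and 46.2%, in an intron 739 to 808 bases downstream of the nearest start. Mpo, the peroxidase of neutrophil granules, stood at 15.5%, 33.2%, 16.0% and 31.6%. Its peak lay in an intron about 8.5 kb into a gene of 10.83 kb, 420 to 443 bases before an internal start. Cd14, the co-receptor for bacterial lipopolysaccharide, had a peak of 1105 to 1398 bases over its coding exon at 47.4%, 58.8%, 40.2% and 49.7%. Itgam, the integrin chain CD11b, had a narrow peak at its start at 60.6%, 77.9% and 61.8% and none in the library without IL-4 replicate 2. Its centre was also within 30 bases of the start of another protein-coding gene, Gm49368, and the peak cannot be assigned to either.

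Fcgr3 also had a second peak in an intron whose height and significance ranked apart. Its heights were 73, 39, 71 and 52, and by height 39.6%, 42.5%, 39.2% and 44.0% of peaks were taller, but by −log10 q-value 85.4%, 77.2%, 79.6% and 74.6% of peaks ranked higher. The same held for the peak at the end of Cd79a, with heights of 114, 67 and 121 in the 3 libraries that had it. This peak lay 871 to 880 bases from the start of the protein-coding gene Arhgef1, nearer than to the start of Cd79a. By height 28.1%, 27.1% and 22.1% of peaks were taller, and by −log10 q-value 65.2%, 59.8% and 49.6% ranked higher. The local background that enters the q-value is not part of the lists.

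Among stem cell factors, Pou5f1 (Oct4) was open in all 4 libraries, its strongest promoter peak standing at 43.1%, 81.1%, 40.7% and 48.0%. These values come from separate peaks, centred about 2 kb and 3.5 kb into the gene. The centres lay 457 to 597 and 714 to 777 bases downstream of the nearest internal starts. The first was called in all 4 libraries, at 47.7%, 81.1%, 40.7% and 84.7%, and the second in all but the library without IL-4 replicate 2. Sox2 had a weak peak with IL-4 only, at 95.0% and 93.8%, and Nanog had no promoter peak. Of the 9 non-blood members Pax6, a master factor of eye development, was open throughout, at 41.8%, 63.0%, 42.9% and 53.6%. The Pax6 peak sat within 55 bases of an internal start, about 6.5 kb from the 5′ end of the gene record. Olig2, a factor of oligodendrocytes and motor neurons, had a weak peak in 3 libraries at 85.6%, 77.1% and 88.5% and none without IL-4 in replicate 2. Myod1 had one only in the library without IL-4 replicate 1, at 92.1%. The 13 promoter peaks of the members open in some libraries ranked between 60.6% and 95.0%, with heights of 13 to 34.

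The definition of the promoter decided part of these calls. Of the 12 members open in all libraries, 8 had a peak within 1 kb of the 5′ end of the gene record in every library, and 4 (Pax5, Mpo, Pou5f1 and Pax6) owed the call in all 4 to internal starts. Pax5 alone of these had a peak at the 5′ end as well, in 1 library. These 4 genes have 7, 6, 6 and 24 annotated start sites. Ins2 and Tnnt2, with 9 and 10 start sites, were closed nonetheless. With only the starts of basic protein-coding transcripts, 8 members were open in all libraries and Pax6 was among them, whereas Pax5, Spi1, Mpo and Pou5f1 were not. With a window of 500 bases Spi1 and Klf1 dropped out and 10 members were open in all libraries.

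**Figure D3:**
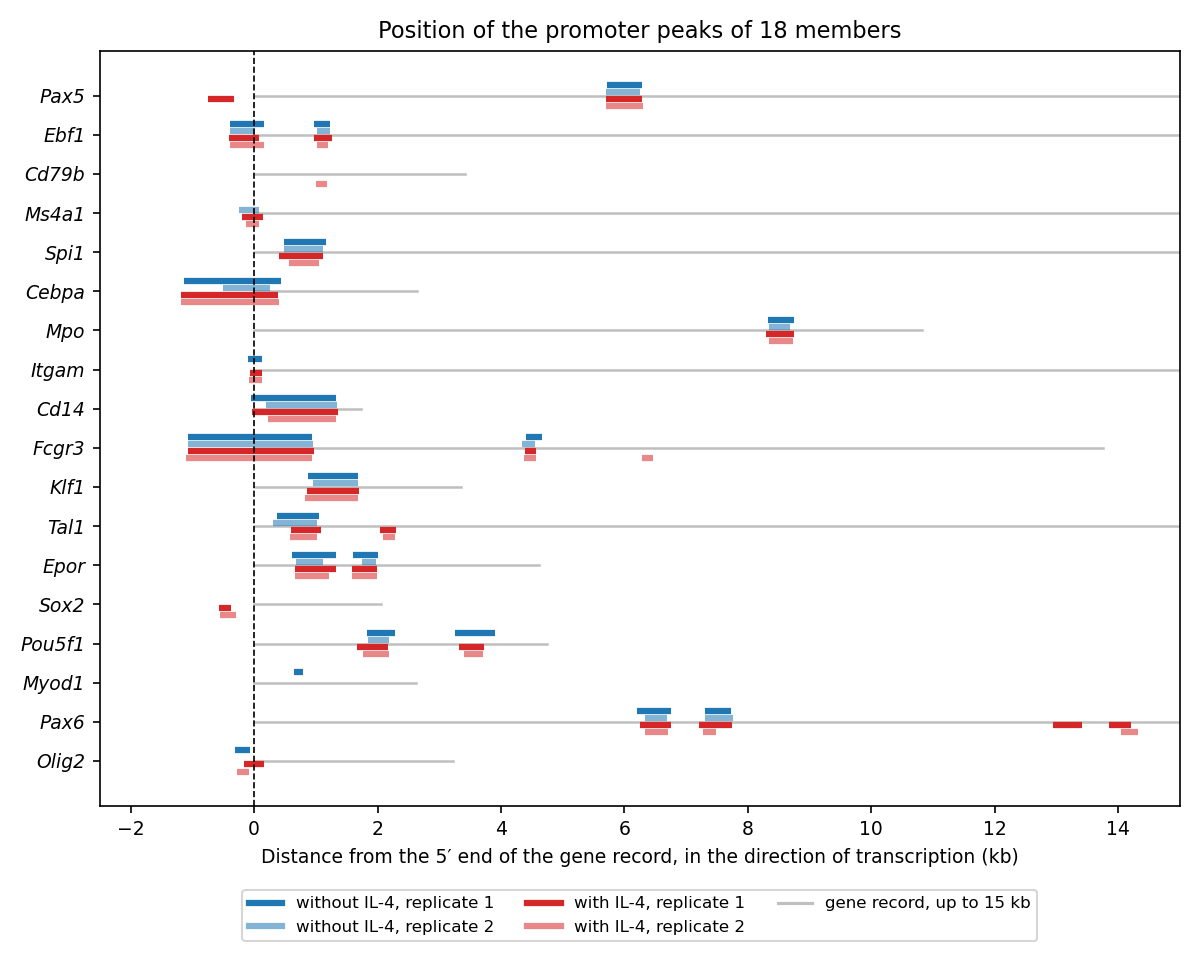
Position of each promoter peak (coloured bars drawn to width) of the 18 members with at least 1, in kb from the 5′ end of the gene record (dashed line) in the direction of transcription; grey lines are gene records, drawn to 15 kb at most. Blue marks libraries without IL-4 and red libraries with IL-4, paler for replicate 2. The bars of Mpo, Pou5f1 and Pax6, and all but 1 of those of Pax5, lie well inside the gene.

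Closed members differed in how far the nearest peak lay. Cebpe, Csf3r, Lyz2, Elane, Alb and Krt5 had neither a promoter nor a gene body peak in any library. Elane, neutrophil elastase, had its nearest peak centre at 2.28, 2.35, 2.33 and 2.34 kb from its start, and Cebpe, a late granulocyte factor, at 2.00, 2.35, 2.36 and 2.37 kb. Lyz2, the macrophage and neutrophil lysozyme, had it at 7.51, 3.42, 3.41 and 7.50 kb. Csf3r, the receptor for G-CSF, had it at 8.97 to 9.05 kb, Alb at 7.95 to 8.03 kb and Krt5, a keratin of basal epithelium, at 36.61 to 36.66 kb. All protein-coding genes without a promoter peak in any library had median distances of 31.59, 40.47, 30.04 and 38.51 kb. Of the 13 closed members, 12 sat nearer to a peak than this median in every library, and Krt5 did in both libraries of replicate 2 only.

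Gene body peaks, those overlapping the gene record outside the promoter windows, were found in all 4 libraries at 10 members (Pax5, Ebf1, Spi1, Itgam, Tal1, Nanog, Myod1, Neurod1, Hnf4a and Tnnt2) and in no library at 16. Of all protein-coding genes, 32.6% had one in all 4 libraries, and 11562 of 21951 had one in no library. The members were near the background in both counts. The members as a whole held 3.52, 1.76, 3.03 and 2.93 body peaks per 100 kb, against 3.06, 2.06, 3.12 and 2.65 for all protein-coding genes and 17.72, 12.66, 18.13 and 15.84 for the T cell list. The members were thus close to the general density and well below T cell genes.

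For their length, Spi1 and Itgam held more body peaks than genes in general, and Ebf1 held fewer. Spi1 had 14.98, 3.0, 8.99 and 8.99 body peaks per 100 kb and Itgam 8.95, 7.16, 8.95 and 7.16. Ebf1 had 2.56, 0.26, 2.05 and 1.02, below the density of all protein-coding genes in each library, and Pax5 had 3.23, 1.62, 2.15 and 3.23, on either side of it. These densities rest on few peaks each and were not tested. Ebf1, a gene of 390.77 kb, had 10, 1, 8 and 4 body peaks. Its only body region called in every library lay in an intron, centred 275694 to 275823 bases downstream of the 5′ end, at 59.2%, 70.9%, 55.3% and 47.5%. Pax5 had 6, 3, 4 and 6 body peaks over 185.73 kb. The strongest lay in an intron at chr4:44624442-44625312, at 17.7%, 30.5%, 14.6% and 21.1%, below the Pax5 promoter peak in every library. Spi1 had 5, 1, 3 and 3, among them an intronic region at chr2:91101339-91101856 that ranked above the Spi1 promoter in all 4 libraries, at 17.7%, 29.4%, 19.2% and 24.0%. Itgam had 5, 4, 5 and 4, and 4 regions of it were called in every library. The library without IL-4 replicate 2, with the shortest list, had the fewest body peaks in Ebf1, Pax5 and Spi1.

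Several closed or weakly open genes carried a body peak in every library. Hnf4a, the liver and gut factor, had an intronic peak at 27.7%, 49.0%, 26.8% and 24.1% about 28 kb into the gene and a weaker one about 25 kb in. Tnnt2, cardiac troponin T, had an intronic peak at 50.6%, 49.3%, 41.5% and 46.6%. Myod1 had a peak at the end of the gene, its centre past the record, at 28.0%, 31.4%, 36.3% and 29.9%, far stronger than its single promoter peak. Neurod1, a neuronal and endocrine factor, had one on its coding exon at 52.0%, 70.9%, 55.3% and 58.8%, within 248 to 347 bases of the start of the noncoding gene Gm26755. Nanog had one on a coding exon at 37.0%, 34.3%, 43.8% and 34.2%. Ins2 had body peaks only with IL-4, 1 in replicate 1 and 2 in replicate 2, at 90.0% for the first and at 98.3% and 93.8% for the second. No other member had body peaks in both libraries of a condition while lacking them in the other condition. Of all genes, 0.806% showed this with IL-4 and 0.305% without.

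**Figure D4:**
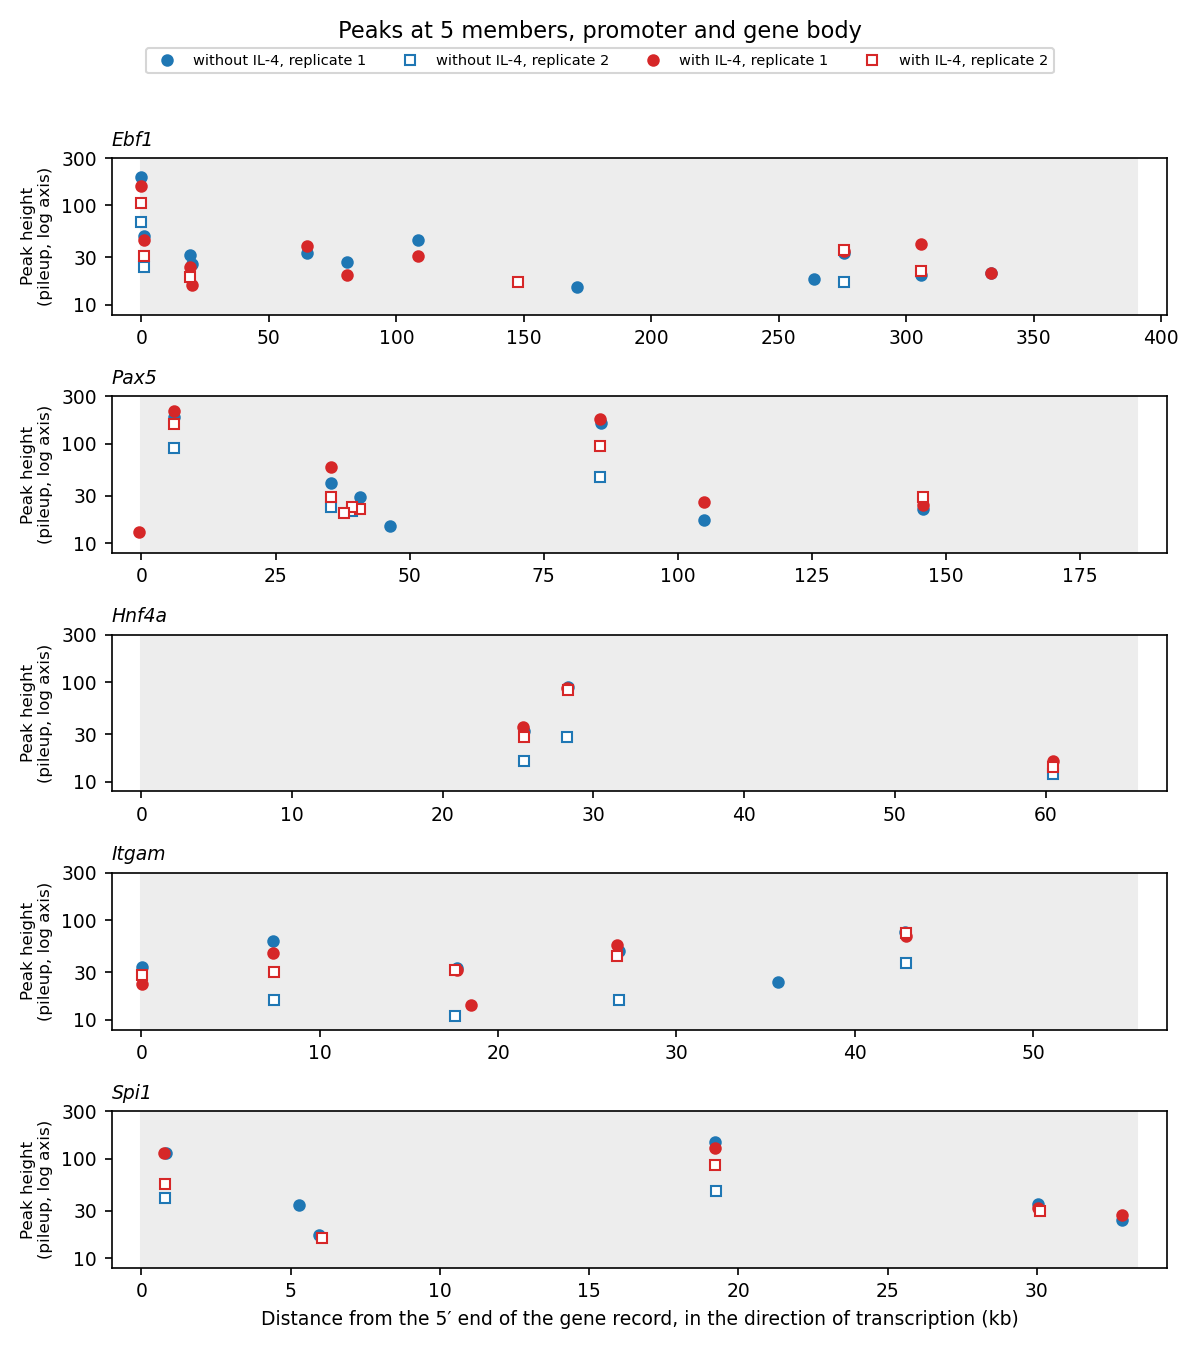
Peaks at Ebf1, Pax5, Hnf4a, Itgam and Spi1 by distance from the 5′ end of the gene record (x axis, kb; grey band is the gene record) and height (y axis, pileup on a log axis, not scaled for depth). Blue marks libraries without IL-4 and red with IL-4, filled circles replicate 1 and open squares replicate 2. The intronic peaks of Pax5 near 85 kb and of Spi1 near 19 kb reach heights of 46 to 179 and 47 to 149.

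At 1 member, the calls at the promoter differed between the conditions in both libraries of each. Sox2 was open in both libraries with IL-4 and in neither without, with heights of 15 and 13 and rank positions of 95.0% and 93.8%. Of all protein-coding genes, 0.346% showed this pattern with IL-4 and 0.0683% the opposite one, which no member showed. The Sox2 peak, 421 to 467 bases upstream of the start, was among the weakest of both lists and was lost when the lists were cut to equal length or to their upper 50%. Without IL-4, the nearest peak to the Sox2 start lay 191.56 kb away in replicate 1 and 569.07 kb in replicate 2. Leaving out the library without IL-4 replicate 1 gave 3 members with such a pattern (Itgam, Sox2 and Olig2), leaving out replicate 2 gave 3 (Ms4a1 and Sox2 with IL-4, Myod1 without), and leaving out the library with IL-4 replicate 1 gave 2 (Cd79b and Sox2).

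The strength of shared regions was compared by limma on normal scores of the rank positions, over 47767 regions called in all 4 libraries. None passed an adjusted p of 0.05 (0%), and 1137 (2.38%) had an unadjusted p under 0.05. Of the 31 regions at members, 0 passed and 0 had an unadjusted p under 0.05, with adjusted p = 1 for each. The median difference, with IL-4 minus without, was -4.43 percentage points for the member regions and -2.05 for all regions, where a negative value is a higher rank with IL-4. With all lists cut to the length of the shortest, these became -0.27 and 0.03. The library medians of the member regions were 41.78%, 58.83%, 40.66% and 46.58%, so the difference between conditions was smaller than the pooled SD of 9.03. Without the library without IL-4 replicate 2 the median difference became 1.44 points, of opposite sign. In 6 of the 31 member regions (at Tnnt2, Ebf1, Pax6, Hnf4a, Pax5 and Itgam) both libraries with IL-4 ranked higher than both without, and in 0 both ranked lower. Over all regions these shares were 19.7% and 5.18%, near the share of the members for the first.

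None of the 5 member regions with the largest differences passed the test (limma, adjusted p = 1 for each). An intronic region of Itgam at chr7:128089090-128089645 stood at 42.9%, 74.4%, 36.2% and 39.5%, a difference of -20.7 points. A region of Itgam over a coding exon and its intron at chr7:128080083-128080580 stood at 59.2%, 93.7%, 59.5% and 52.6%, a difference of -20.4 points. In both, the library without IL-4 replicate 2 was far below the other 3, which differed little. The intronic Ebf1 region at chr11:44892865-44893319 differed by -13.7 points and the stronger Hnf4a region at chr2:163534709-163535370 by -12.9 points, each with the same library lowest. The second Epor peak at chr9:21961499-21961914 ranked lower with IL-4 by 8.9 points, with overlapping libraries.

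The members fell into both classes of CpG content. In the 1 kb around the 5′ end of the gene record, a promoter was called CpG-rich at an observed/expected CpG ratio of at least 0.6 and a GC content of at least 50%. Of all protein-coding genes, 90.4% of 9737 CpG-rich promoters and 35.5% of 12186 CpG-poor ones were open in all 4 libraries. Among the members, 3 of 6 CpG-rich and 9 of 25 CpG-poor promoters were, numbers too small to compare with those shares. The CpG-rich members of blood, Cebpa (0.89), Fcgr3 (0.84) and Tal1 (0.80), were open in all libraries. Those outside the blood were not: Sox2 (0.96) was open in 2 libraries, Olig2 (0.76) in 3 and Neurod1 (0.68) in none. Klf1 had the lowest ratio of all members, 0.08, but its peak is centred outside this 1 kb stretch.

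**Figure D5:**
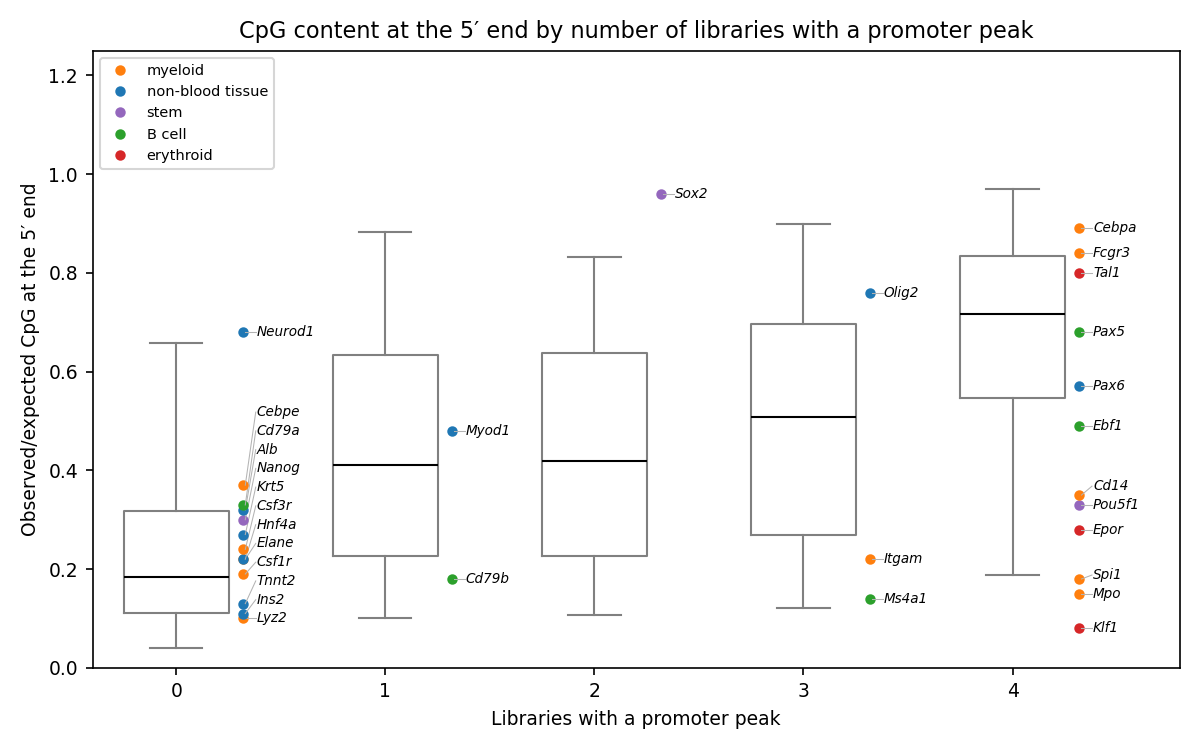
Observed/expected CpG ratio in the 1 kb around the 5′ end (y axis) against the number of libraries with a promoter peak (x axis). Boxes are all protein-coding genes with the quartiles and whiskers at the 5th and 95th percentiles; points are the members, coloured by lineage. Sox2, Olig2 and Neurod1 lie high and are open in fewer than 4 libraries, and Klf1, Mpo and Spi1 lie low and are open in 4.

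Measured under the peaks instead, CpG was more common. Of the 16 promoter regions of members called in all 4 libraries, 11 were CpG-rich (68.8%), against 64.6% of all 14736 such regions within 1 kb of a protein-coding start, so that the members were near the background. By gene, 9 of the 12 open members had a CpG-rich promoter region. Those of Pax5 (ratio 0.79), Klf1 (0.78), Epor (0.63 and 0.71), Cd14 (0.63), Pax6 (0.79 and 0.97) and the downstream one of Ebf1 (0.96) lay in genes whose 5′ end was CpG-poor. The 5′ end of Pax5 had a ratio of 0.68 and counted as CpG-poor only by its GC content of 47.2%. The regions of Mpo (0.57), Pou5f1 (0.30) and Spi1 (0.17) were not CpG-rich. Of the 15 gene body regions 2 were (13.3%), those on coding exons of Neurod1 (0.78) and Tal1 (0.74), against 4.1% of all regions away from protein-coding starts.

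Short motifs of lineage factors were searched on both strands of the RefSeq promoters, 300 bases each, of the 23 members that matched an entry. GAGGAAGT, the core bound by PU.1, occurred at Elane and Mpo (2 of 23, against 3.2% of 32851 promoters of all genes). AGATAA, bound by GATA factors, occurred at Epor, Hnf4a, Tal1 and Tnnt2 (4 of 23, against 11.2%). TGTGGT, bound by RUNX factors, occurred at Ebf1, Epor, Klf1, Lyz2 and Tnnt2 (5 of 23, against 16.8%). GGGCGG, the GC box, occurred at 9 of 23, against 35.7%. A member was counted when any of its RefSeq promoters held the motif, whereas the percentages are of single promoters. The counts and percentages are therefore not on the same basis. No motif searched contains another, and a match is a description of the sequence only.

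Other markers of the same lineages, 42 genes that were no members, were counted in the same way: 12 (28.6%) had a promoter peak in all 4 libraries, 11 in some and 19 (45.2%) in none, against 38.7% of the members in all and 41.9% in none. The open ones included Blk, Cr2, Vpreb1 and Pou2af1 of B cells, Cd68 and Prtn3 of myeloid cells, Gata1, Nfe2 and Gfi1b of erythroid cells, and Pdx1 and Gfap outside the blood. By lineage these were 4 of 9, 2 of 9, 4 of 7 and 2 of 17. Closed in every library were 33.3% of these B cell, 66.7% of the myeloid, 28.6% of the erythroid and 47.1% of the non-blood genes. Igll1 and Bank1 of B cells, Adgre1, S100a8 and S100a9 of myeloid cells, and Alas2 and Hbb-bt of erythroid cells had no promoter peak in any library. Of the members of these lineages, Cd79a, Cebpe, Csf1r, Csf3r, Lyz2 and Elane had none either, whereas Pax5, Ebf1, Spi1, Cebpa, Mpo, Cd14, Fcgr3, Klf1, Tal1 and Epor had one in all 4 libraries. Whether other cells in the cultures added to the open promoters was not tested.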

How the data were processed

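ATAC-seq peak lists of 4 libraries, 2 without and 2 with IL-4, were analysed, grouped by the treatment label. The authors sequenced on the BGISEQ-500 and, per the submitters' processing notes, used Bowtie2 2.2.5, MACS2 2.1.2 and bedtools 2.16.2 with mm10. A correction for transposase offset and the removal of duplicates are not given in the sources used here, and could move peak edges and heights. Each list was deposited by the authors with a −log10 q-value and a height of the pileup signal per peak, neither scaled between libraries. The lists have no header, so these meanings were read from the values. Depth is unknown and no intervals were computed.

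Peaks were matched to GENCODE vM21 starts (window 1 kb, at least 1 shared base) and gene records with Python 3.11.15, numpy 2.4.6 and pandas 2.3.3. Figures were drawn with matplotlib 3.10.9. Rank positions of regions called in all 4 libraries were turned into normal scores within a library and compared by limma 3.58.1 in R 4.3.3, with Benjamini-Hochberg adjustment. In a test on simulated data with 47767 regions, 190 of 200 regions shifted by 1 normal score were recovered for this comparison, with 19 others called. Every simulated region had the same spread and the libraries varied independently, unlike the real regions. The recovery is therefore not the power of the test on these data. Sequence came from GRCm38.p6 (CpG for 47710 regions) and RefSeq promoters (23 of 31 members matched). With 2 libraries a condition, p-values set the difference between conditions against the spread between these libraries, which limma moderates over all regions.

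The members, lists, windows and tests were chosen with earlier results of these data known. Members with a promoter peak were named with their rank in every library, closed members were listed, and, with no region called, the 5 regions with the largest differences were named. The sequences under peaks, their CpG content and the order of the libraries per region were added after their values were seen. Alternatives changed the window, the starts, the peak rule, the list length, the ranking and the libraries. Of 43 comparison genes, Clec7a was not matched and is not analysed here. Some comparison genes are counted but not reported by name here.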

Additional observations from a re-analysis of the deposited data

How the results depend on the processing

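Counts of members with a promoter peak in all libraries, in none, or in 1 condition, counts with gene body peaks, and the rank comparison were recomputed under other choices. Of 59 such values, 53 kept their value within 1.5 times or within the spread of the libraries. These limits were wide. A median difference counted as kept within 9.03 points, also at 1.44 with its opposite sign, and 0 member regions were called in every setting. Only peaks of the upper 50% of each list left 8 members open in all libraries, 19 in none, 0 open in 1 condition alone and 6 with a body peak in all libraries. Lists of equal length left 12 open in all, 17 in none and 0 open in 1 condition alone. In both cases fewer peaks entered. Leaving out each library in turn gave 12 to 14 members open in all libraries, 13 to 14 in none, 1 to 3 open in 1 condition alone, 10 to 11 with a body peak in all, 0 regions called and a median difference between -9.42 and 1.44 points. Windows of 500 bases and 2 kb gave 10 and 14 open in all libraries, and the 5′ end of the gene record alone gave 8. For single members, 217 of 248 numbers of open libraries were unchanged, and 15 of the 31 members kept theirs under all 8 alternatives that keep the 4 libraries.

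With the replicate number as a block, 0 member regions were called and the median difference was -4.43 points, as without it; the smallest adjusted p was 0.735 over all regions and 0.759 at members. Deviations of libraries with the same number correlated at r = 0.379 across regions, which 2 numbers cannot establish as pairing. Ranking by height gave -3.83 points, equal list length -0.27, and the upper 50% -3.05. Unknown depth limits all calls of a closed promoter, and peak lists hold no measure of how far below the threshold a promoter lay.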

Other observations

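The peak on the coding exon of Nanog ended at the same base, chr6:122712090, in all 4 libraries, while its starts spread over 19 bases. Of 45175 regions with 1 peak in each library, 217 (0.48%) shared a start or an end to the base, and the median spread of the ends was 90 bases. The shared end lay 287 bases from the nearest exon edge of Nanog. It was the only one of the member regions with an identical edge, and it was chosen after its values were seen.

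In the library with IL-4 replicate 1, 9 of 17 comparison genes of tissues outside the blood had a promoter peak, against 4, 3 and 3 in the other libraries. Its list held 78670 peaks, close to the 77064 of the library without IL-4 replicate 1, in which 4 were open. Of the genes open in the former only, Prdm14, Foxa2, Nkx2-5 and Nkx2-2 stood at 94.2%, 97.1%, 96.8% and 92.6%. Their heights were 17, 14, 17 and 16, near the lowest height of that list, 12. Sox1 stood at 53.9% with a height of 36. Of all protein-coding genes, 64.1%, 60.8%, 64.6% and 62.9% had a promoter peak in the 4 libraries. A higher count in that library was not seen at the 9 non-blood members, of which 3, 1, 2 and 2 were open.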
